A study of Mus musculus with 16 samples.

Results

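The peaks described here are those that start below position 3200000 of any chromosome, next to the centromere gap of the mouse assembly, or that lie on chromosome 2 between 98500000 and 98510000. They were chosen by the deposited positions of the peaks in 8 ChIP-seq lists, and 192 of the 4839 listed peaks (3.97%) met the rule. The set was proposed with earlier results of these data known, so its size and place are a description and not a finding. All positions are 1-based on build mm9, per the submitters' processing notes, while the limits are given as the rule states them.

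The lists come from mouse embryonic fibroblasts, connective tissue cells of C57BL/6 embryos taken 13.5 days post coitum. Cultures received 1 factor each by infection (Foxa1, Foxa2, Foxa3 or Hnf4a), and on day 2 or day 30 chromatin was immunoprecipitated with an antibody against the introduced factor. Each factor and day had 1 ChIP sample and 1 input sample. The 8 inputs were not used here, uninfected cells were not analysed here, and the promoter driving the transduced factors is not given in the sources used here. No value therefore carries an error between samples, and no test between factors or days was made. The read depth of the libraries was unknown, so a place missing from a list was not shown to be unbound. The intervals given are exact Clopper-Pearson 95% intervals and cover counting error only. For a count of 0, the highest share it allows was set at 3 counts.

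Mouse chromosomes carry their centromere at one end, where long tandem arrays of satellite DNA form the pericentromeric heterochromatin. Genome assemblies leave most of these arrays out as a gap and hold only a few copies of the repeat, so that reads from many copies can be placed on few positions. The Foxa proteins belong to the forkhead family and can bind their sites on nucleosomes. Hnf4a, a nuclear receptor found in liver cells, binds DNA as a dimer. No mm9 sequence was used here. The bases under the peaks and the repeat or gene annotation there were therefore not analysed, and the peaks are named by position only.

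The set was almost wholly made of 2 lists that differ in both factor and day. Foxa3 day 2 held 100 of its 146 peaks there (68.5%, interval 60.3 to 75.9%), and Hnf4a day 30 held 86 of 448 (19.2%, 15.7 to 23.2%). Together they gave 186 of the 192 peaks (96.9%). Foxa1 day 2 held 5 of 442 (1.13%, 0.368 to 2.62%), and Foxa1 day 30 held 1 of 3331 (0.03%, 0.00076 to 0.167%). The other 4 lists, with 472 peaks in all, held none. For Foxa3 day 30, with 265 peaks, a count of 0 allows a share of up to 1.13%, and for Foxa2 day 30, with 174, up to 1.72%. It allows up to 13% for the 23 peaks of Foxa2 day 2 and 30% for the 10 of Hnf4a day 2, so the day 2 list of Hnf4a was too short to show a difference from its day 30 share. With peaks of a list within 500 bp joined, which counts crowded peaks once, the shares were 39.1% for Foxa3 day 2 and 9.29% for Hnf4a day 30. Without chromosome 9 they were 14.8% and 3.31%, and 0.238% for Foxa1 day 2.

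**Figure D1:**
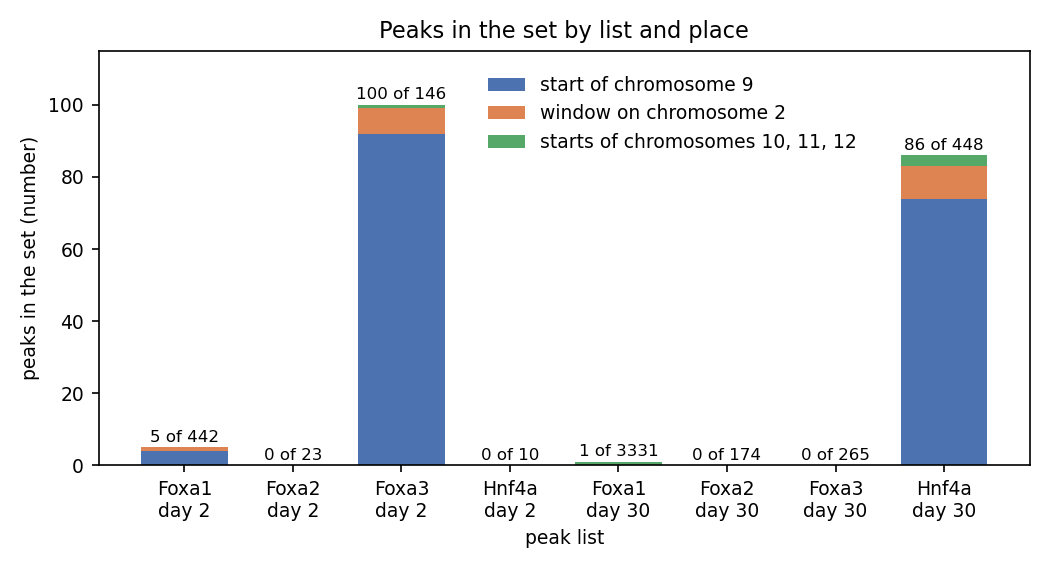
Number of peaks in the set (vertical axis) in each of the 8 peak lists (horizontal axis), with colours for the place and the number of all peaks of the list above each bar. Foxa3 day 2 (100 of 146) and Hnf4a day 30 (86 of 448) hold nearly all of them, and 4 lists hold none.

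Most of the peaks lay in a single block. The start of chromosome 9 (3000026 to 3038273, 38.2 kb) held 170 of the 192 peaks (88.5%, 83.2 to 92.7%). Of these, 92 were from Foxa3 day 2, 74 from Hnf4a day 30 and 4 from Foxa1 day 2. The window on chromosome 2 held 17 peaks between 98502420 and 98507457, of which 7 were from Foxa3 day 2, 9 from Hnf4a day 30 and 1 from Foxa1 day 2. Both blocks were thus held by the same 3 lists. They also stood far from other peaks: the next peak of any list on chromosome 9 began at 7547606, 4509 kb further on, and the nearest other peak on chromosome 2 (101791040 to 101791281) was 3281 kb from the window. Both of those neighbours were Foxa1 day 30 peaks, and the block on chromosome 9 held no peak of that list.

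The remaining 5 peaks lay at the starts of chromosomes 10, 11 and 12. Chromosome 12 had the only overlap among them, between a Foxa3 day 2 peak (3110004 to 3110102, score 5.49) and a Hnf4a day 30 peak (3109899 to 3110037, score 6.61). A second Hnf4a day 30 peak on chromosome 12 (3028724 to 3028780, score 5.31), one on chromosome 11 (3189756 to 3189812, score 8.48) and the Foxa1 day 30 peak on chromosome 10 (3186719 to 3186834, score 6.74) were in no other list. The score is the authors' own value per peak, read as −log10 of a p-value, and is compared only within a list. The last 2 of these peaks were the 2 nearest to the limit on its inner side, followed by the Foxa3 day 2 peak on chromosome 12. The first peaks beyond the limit were 3 Foxa1 day 30 peaks on chromosome 10 (3227909 to 3228007, score 13.1), chromosome 11 (3232428 to 3232506, score 11.3) and chromosome 6 (3257991 to 3258066, score 9.18), none of them in another list. Of the 20 chromosomes with any peak, 4 had one before the limit. Whether this is few for stretches of that length was not tested.

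Within the block on chromosome 9 the peaks were dense and spread over its whole length. All lists together had 4.44 peaks per kb there, and their union covered 32.7% of the block. Foxa3 day 2 alone covered 22.1% and Hnf4a day 30 alone 22.6%. Counted in 5 equal parts from the start of the block to its end, Foxa3 day 2 had 20, 19, 16, 17 and 20 peaks. Hnf4a day 30 had 13, 14, 14, 16 and 17. Neither list was concentrated at one end. The 104 merged regions were separated by 103 stretches without any peak, from 43 to 968 bp long with a median of 225 bp. The longest empty stretch (3004803 to 3005770) was in the first part of the block. The window on chromosome 2 had 3.37 peaks per kb and a covered share of 28.2%.

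**Figure D2:**
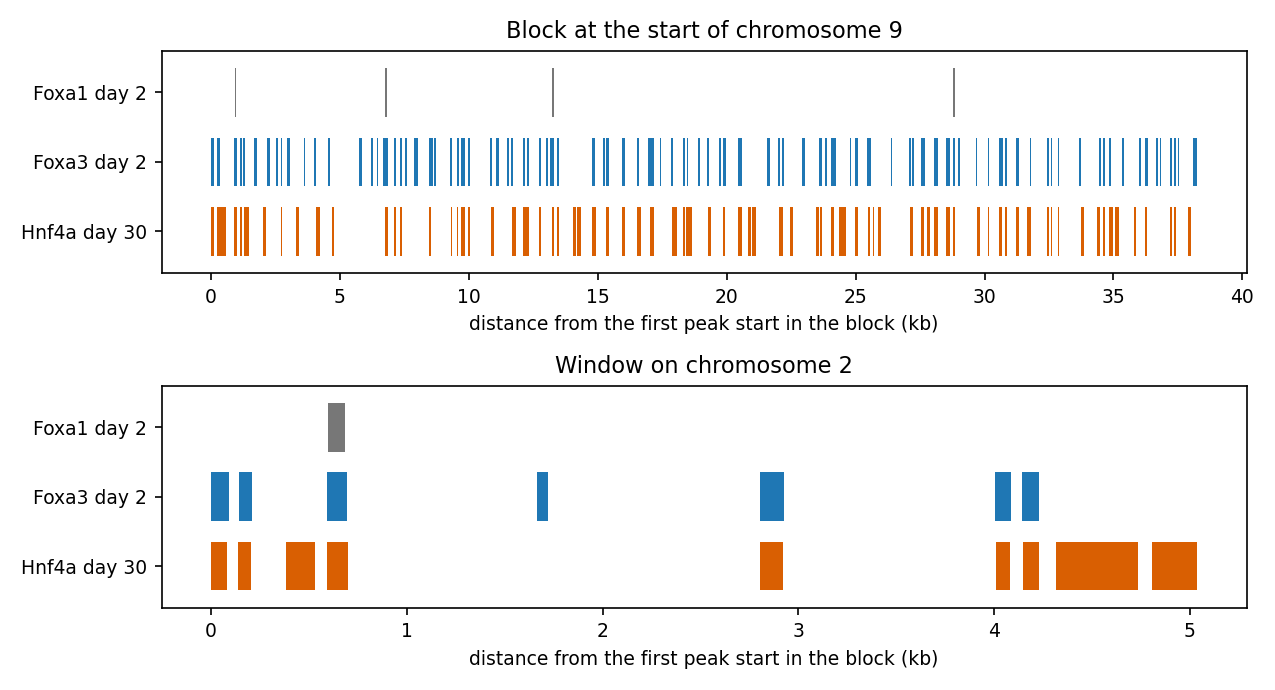
Peaks of the 3 lists in the block on chromosome 9 (top) and in the window on chromosome 2 (bottom), drawn to scale as bars from start to end, with the distance from the first peak start of each block in kb on the horizontal axis. Foxa3 day 2 (92 and 7 peaks) and Hnf4a day 30 (74 and 9) run over the whole block on chromosome 9 and often occupy the same places, and each Foxa1 day 2 peak (4 and 1) stands where both of the others have one.

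Neighbouring peaks of a list followed each other at short steps. On chromosome 9 the step between centres of neighbouring Foxa3 day 2 peaks ranged from 113.5 to 1390 bp with a median of 386.5 bp, and its middle 50% of values from 224.25 to 532 bp. For Hnf4a day 30 the range was 139 to 2070 bp, the median 463 bp and the middle 50% 238.5 to 643 bp. The edges of neighbouring peaks were at least 55 bp apart in Foxa3 day 2 and 53 bp apart in Hnf4a day 30. In bins of 50 bp, chosen after the data were seen, the fullest bin of both lists was 200 to 250 bp, with 13 of 91 Foxa3 day 2 steps and 14 of 73 Hnf4a day 30 steps. From 300 to 350 bp each list had 2 steps, and from 450 to 500 bp there was a second rise, with 9 and 7. The lists share many places, so their steps are not independent of each other.

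A fixed step over the whole block was not seen. For each whole period from 100 to 400 bp, the phase strength of the peak centres was computed, which is 1 when all centres lie at the same point of the period and near 0 when they are spread evenly. Its highest value was 0.26 for Foxa3 day 2, at 235 bp, and 0.261 for Hnf4a day 30, at 228 bp. The next highest values were close, 0.235 at 129 bp and 0.249 at 215 bp. At the period of the other list the values were 0.150 for both lists. The median over all periods was 0.0754 for Foxa3 day 2 and 0.0906 for Hnf4a day 30. The peaks of the same lists outside the set had 0.0865 (46 peaks) and 0.0537 (362 peaks) at the periods 235 and 228 bp. Those peaks lie on several chromosomes with no common phase, and the periods were picked as the highest for the set. These values are therefore no baseline for the highest ones, and whether 0.26 is raised was not tested. The period depended on the part of the peak used: from peak starts it was 235 and 228 bp, as from centres, but from peak ends it was 162 bp for Foxa3 day 2 and 156 bp for Hnf4a day 30. No period is therefore given as a property of the block.

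**Figure D3:**
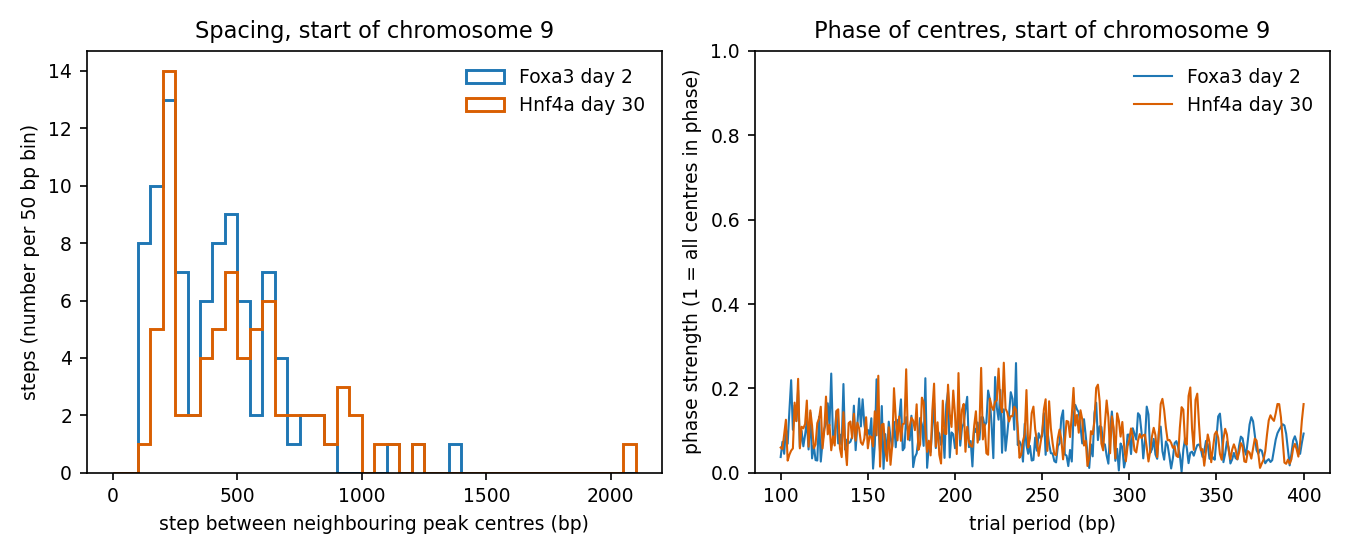
Left, number of steps between neighbouring peak centres (vertical axis, per bin of 50 bp) by length of the step in bp, for 92 Foxa3 day 2 and 74 Hnf4a day 30 peaks at the start of chromosome 9. Right, phase strength of the same centres for each trial period in bp. The steps are most frequent from 200 to 250 bp in both lists, while no period passes a phase strength of 0.261.

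Outside the set, peaks of these lists lay further apart. Most of the set lies in short blocks picked by position, so its short distances follow largely from the rule and were not tested. Of the Foxa3 day 2 peaks in the set, 97 of 100 had another peak of the list within 1000 bp (centre to centre), against 14 of the other 46 (30.4%). For Hnf4a day 30 the numbers were 82 of 86 (95.3%) and 124 of 362 (34.3%). The median distance to the nearest peak of the same list was 226.5 bp in the set and 7.14 kb outside it for Foxa3 day 2, and 291.5 bp and 280.2 kb for Hnf4a day 30. None of the 5 Foxa1 day 2 peaks of the set had another peak of the list within 1000 bp, against 53 of the other 437 (12.1%). Their median distance was 6.47 kb in the set and 882.1 kb outside it.

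The lists named the same places within the blocks. In the set, 68 of 100 Foxa3 day 2 peaks (68%, 57.9 to 77%) overlapped a Hnf4a day 30 peak by at least 1 bp, and over all Foxa3 day 2 peaks the share was 49.3%. Outside the set it was 4 of 46 (8.7%, 2.42 to 20.8%). In the other direction 66 of 86 Hnf4a day 30 peaks of the set (76.7%, 66.4 to 85.2%) overlapped a Foxa3 day 2 peak, against 15.6% over the whole list and 4 of 362 (1.1%, 0.302 to 2.8%) outside the set. The rule was proposed with this overlap known and neighbouring peaks are not independent, so the difference was not tested. On chromosome 9 the shares were 61 of 92 (66.3%) and 59 of 74 (79.7%). In the window on chromosome 2 they were 6 of 7 and 6 of 9. With the Hnf4a day 30 list cut to its 146 highest-scoring peaks, the Foxa3 day 2 share was 30%, and 82.9% of the 35 Hnf4a day 30 peaks of the set then left overlapped Foxa3 day 2. Between the higher-scoring parts of both lists (scores above the list's median) the shares were 41.2% of 34 and 25.9% of 54. Both blocks are also so dense that places close to each other are common: 96% of the Foxa3 day 2 peaks had a Hnf4a day 30 centre within 500 bp.

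Merged across lists, the set formed 118 regions. Of these, 60 were in Foxa3 day 2 and Hnf4a day 30, 5 were in these lists and Foxa1 day 2, 32 were in Foxa3 day 2 only, 20 in Hnf4a day 30 only and 1 in Foxa1 day 30 only. Thus 65 regions (55.1%) were in more than 1 list, against 525 of 3929 regions (13.4%) outside the set. Of the 70 regions of the whole series listed for both Foxa3 day 2 and Hnf4a day 30, 65 (92.9%) lay in the set. Foxa3 day 2 and Hnf4a day 30 gave nearly all of the set, while 3330 of the 4647 peaks outside were from Foxa1 day 30. The shares of regions in more than 1 list thus rest on different lists. The rule was proposed with the overlap known, so these shares in part restate that choice and were not tested.

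Every one of the 5 Foxa1 day 2 peaks of the set overlapped both a Foxa3 day 2 and a Hnf4a day 30 peak, while 0 of the other 437 Foxa1 day 2 peaks did. Outside the set only 5 of 3929 regions held both Foxa3 day 2 and Hnf4a day 30. Those 437 peaks thus had few places where they could overlap both, and no difference is drawn from the 0. Over the whole Foxa1 day 2 list, 1.58% of peaks overlapped Foxa3 day 2 and 1.36% overlapped Hnf4a day 30. These 5 regions were the only ones of the set in 3 lists. The highest Foxa1 day 2 score among them, 6.49, was at 3028803 to 3028868 on chromosome 9, inside a Foxa3 day 2 peak (3028795 to 3028881, score 5.31) and a Hnf4a day 30 peak (3028790 to 3028882, score 9.42). The second, with a Foxa1 score of 5.78, was at 3013248 to 3013326. It overlapped a Foxa3 peak of 3013171 to 3013333 (score 6.68) and a Hnf4a peak of 3013240 to 3013324 (score 8.41). On chromosome 2 the Foxa1 peak (98503018 to 98503103, score 5.55) lay within a Foxa3 and a Hnf4a peak that both began at 98503013 and ended at 98503112 and 98503119. The last 2, at 3000941 to 3000996 and 3006781 to 3006861 on chromosome 9, had Foxa1 scores of 5.02 and 5.23. All 5 scores were in the lower part of the Foxa1 day 2 list, whose median was 8.19, and the best of them ranked 401 of 442.

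The overlapping peaks of Foxa3 day 2 and Hnf4a day 30 often had nearly the same bounds. Over the 69 overlapping pairs in the set, the starts differed by a median of 5 bp (0 to 176) and the ends by a median of 8 bp (0 to 246). In 31 pairs (44.9%) both bounds agreed to within 10 bp. In 8 pairs the start was the same base, in 4 the end, and 1 pair, on chromosome 9 at 3020482 to 3020604, was identical.

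Bounds differed more between pairs of other lists outside the set. Peaks of Foxa1 day 2 and Foxa1 day 30 that overlapped (313 pairs) had median differences of 54 bp at the start and 54 bp at the end, and 5 pairs (1.6%) agreed to within 10 bp at both. For Foxa2 day 30 with Foxa1 day 30 (154 pairs) the medians were 39 and 52.5 bp, with 1 such pair. Many of those peaks were wider than the peaks of the set. Among pairs of peaks of at most 150 bp, the medians were 33 and 24 bp over 101 pairs of the Foxa1 lists, against 5 and 7 bp over 55 pairs in the set, and 4 (3.96%) against 30 (54.5%) agreed at both bounds. For Foxa2 day 30 with Foxa1 day 30 they were 16.5 and 22.5 bp over 52 such pairs, with 0 agreeing at both. Within the set, the 5 Foxa1 day 2 peaks differed by medians of 22 and 13 bp from Foxa3 day 2 and of 13 and 14 bp from Hnf4a day 30. The 4 pairs of Foxa3 day 2 with Hnf4a day 30 outside the set also had close bounds, with medians of 4 and 9.5 bp, so near-equal bounds were not seen in the set alone. The lists compared differ, and these differences were not tested.

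**Figure D4:**
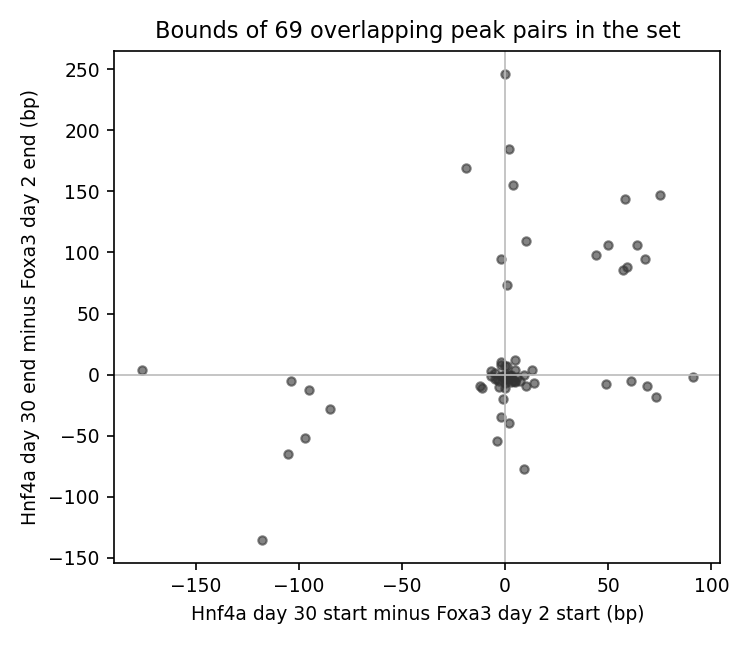
For each of the 69 overlapping pairs in the set, the start of the Hnf4a day 30 peak minus the start of the Foxa3 day 2 peak in bp (horizontal axis) and the same difference of the ends (vertical axis). The points crowd at the crossing of the zero lines, where 31 pairs lie within 10 bp on both axes.

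The scores of the set stood differently in the lists that hold it. In Foxa3 day 2 the scores in the set ranged from 5.10 to 12.2 with a median of 5.70, against a median of 8.27 and a highest value of 22.0 outside it. Of the 100 peaks, 34 (34%) scored above the median of the list, 6.34, against 39 of the other 46 (84.8%). In Hnf4a day 30 the order was the other way: the median was 8.48 in the set (5.31 to 14.8) and 7.56 outside it (5.10 to 15.3). There 54 of 86 (62.8%) scored above the list median of 7.90, against 165 of 362 (45.6%). That order turned in other settings: without chromosome 9 the median was 7.51 for the 12 peaks left in the set and 7.61 for the others, and among scores above the list median it was 9.20 against 9.41. Among the 50 highest-scoring peaks of each list, 19 were in the set for Foxa3 day 2 and 11 for Hnf4a day 30.

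Scores in the Foxa3 day 2 blocks were often the same number. The value 5.14 was shared by 27 of the 100 peaks to all deposited digits, and by none of the other 46. Of those 27 peaks, 26 overlapped a Hnf4a day 30 peak, and their median width was 106 bp (49 to 238). The 100 peaks had 37 distinct scores, while the 46 others had 36. The Hnf4a day 30 peaks of the set had 80 distinct scores among 86, so the repeated value was not a feature of both lists. Repeated scores also occurred outside the set: the commonest value was held by 26.1% of Foxa2 day 2 peaks, 21.3% of Foxa2 day 30 peaks and 12.8% of the other Foxa1 day 2 peaks.

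The highest-scoring peaks of the set differed between the lists as well. In Foxa3 day 2 they were on chromosome 9 at 3036814 to 3036867 (score 12.2), 3002558 to 3002609 (10.9) and 3011521 to 3011575 (9.95). None of the 3 overlapped a peak of another list, and they ranked 8, 14 and 17 of 146. In Hnf4a day 30 they were also on chromosome 9, at 3030159 to 3030216 (score 14.8), 3037380 to 3037440 (12.6) and 3030832 to 3030900 (12.3), with ranks 2, 12 and 14 of 448. All 3 overlapped a Foxa3 day 2 peak, whose scores were 7.58, 7.58 and 6.47. Over the whole set, the Foxa3 day 2 peaks shared with Hnf4a day 30 had the lower scores, with a median of 5.31 over 68 peaks against 7.003 over the 32 not shared. The shared ones were also wider, with a median of 87 bp against 63.5 bp, and width by itself raises the chance of an overlap. In Hnf4a day 30 the shared peaks had the higher scores, 8.54 over 66 against 7.48 over 20, at median widths of 110.5 and 114 bp.

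Width and score ran against each other within the set. Across its Foxa3 day 2 peaks Spearman's rho was -0.37 (100 peaks), and across the other peaks of that list it was 0.40 (46 peaks). For Hnf4a day 30 rho was -0.41 in the set (86 peaks) and -0.07 outside it (362 peaks). In the other dense blocks described below it was -0.19 for Hnf4a day 30 (60 peaks) and 0.63 for Foxa3 day 2 (13 peaks). These are descriptions across peaks of 1 library each, which share neighbouring places, and carry no p-value. The median width was 79.5 bp in the set and 77.5 bp outside it for Foxa3 day 2, and 113 bp and 86 bp for Hnf4a day 30. The widest peak of the set was a Hnf4a day 30 peak of 423 bp in the window on chromosome 2 (98506735 to 98507157, score 6.42).

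**Figure D5:**
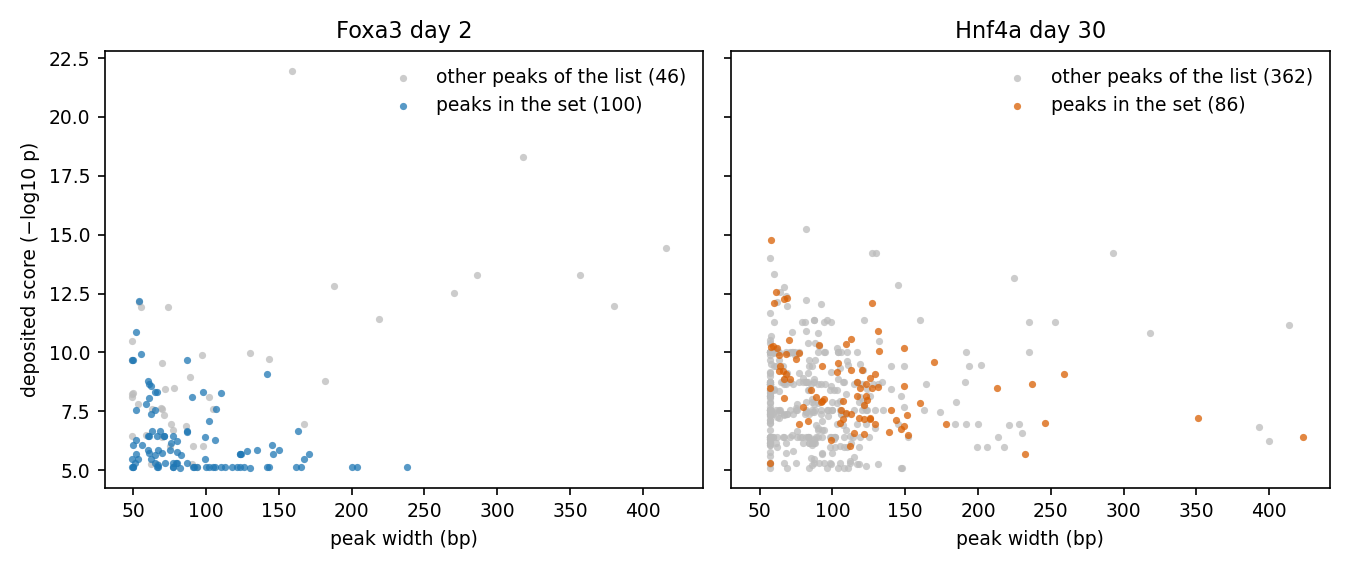
Deposited score (vertical axis, −log10 p) against peak width in bp (horizontal axis) for Foxa3 day 2 (left) and Hnf4a day 30 (right), each point a peak, in colour for the set (100 and 86) and in grey for the other peaks (46 and 362). No Foxa3 day 2 peak of the set is wider than 238 bp or scores above 12.2, while some of the others do both.

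The other dense blocks of the series served as the nearest comparison. Peaks of all lists were chained over gaps of up to 20 kb, and 7 chains of 10 or more peaks lay outside the set, with 103 peaks and 0.333 to 2.61 peaks per kb. Foxa3 day 2 had 13 peaks in them, all in 2 blocks on chromosomes 11 and 12, with 6 and 7. Of these 13 peaks, 12 overlapped a Foxa3 day 30 peak and 1 overlapped a Hnf4a day 30 peak. Those 2 blocks hold only 2 and 1 Hnf4a day 30 peaks, just as the set holds none of Foxa3 day 30, so which lists a block holds sets these counts and no difference from the set is drawn from them. Merged, those blocks formed 82 regions, of which 12 (14.6%) were in more than 1 list. The Foxa3 day 2 peaks there had a median score of 11.97 and a median width of 102 bp. Hnf4a day 30 had 60 peaks in those blocks, with a median score of 8.44 and a median width of 105.5 bp. Its peaks of the set had 8.48 and 113 bp, so for Hnf4a day 30 these medians were not particular to the set. Over all Foxa3 day 2 peaks outside the set, 27 of 46 (58.7%, 43.2 to 73%) were listed again on day 30. These values were in part known from earlier results and were not tested.

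Whether reads of repeats or factor binding gave these peaks was not tested. In the set, 68% of Foxa3 day 2 and 76.7% of Hnf4a day 30 peaks overlapped the other list. Between the higher-scoring parts of both lists the shares were 41.2% and 25.9%. Both bounds agreed to within 10 bp in 31 of 69 overlapping pairs. The 4 lists with no peak there were Foxa3 day 30 with 265 peaks, Foxa2 day 30 with 174, Foxa2 day 2 with 23 and Hnf4a day 2 with 10. Input signal, read depth and sequence were not analysed here.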

How the data were processed

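ChIP-seq was done on 8 samples, 1 per factor and day, with 8 inputs that were not used here. Build mm9 and the tools MACS2 2.1.0, BWA 0.6.2 and bedtools 2.16.2 are named, per the submitters' processing notes, with neither role nor order. The peak threshold, the treatment of multi-mapping reads and use of the inputs are not given in the sources used here, and each could change how many peaks repeats give. The authors deposited 1 list per ChIP sample, with chromosome, start, end, name and a score per peak, read from the values as −log10 of a p-value (lowest 5.02). Groups came from the titles. Members, lists and comparisons were chosen with earlier results of these data known. Peaks counted as shared with at least 1 bp of overlap, and regions were merged where peaks overlapped or touched. The regions named in the text were, by rule, the 3 members nearest each side of the limit, the 3 merged regions found in most lists and, per list, the 3 members of highest score; others were chosen after their values were seen. Python 3.11.15, NumPy 2.4.6, SciPy 1.17.1 and Matplotlib 3.10.9 were used. The overlap count and the period search were tested on simulated lists. Alternatives were other position limits, stricter scores, merging, other overlap definitions, equal list lengths, peak starts or ends, and leaving out chromosome 9.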

Additional observations from a re-analysis of the deposited data

Results flagged for a closer look

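The share of the list in the set differed between days for 2 factors, each with 1 sample per day, but for Hnf4a a change was not shown. For Foxa3 the listed share differed by -68.5 percentage points from day 2 to day 30, 100 of 146 peaks against 0 of 265. The 2 Foxa3 lists also differed in peak width. On day 30 the narrowest peak was 175 bp and the median 237 bp. On day 2 the narrowest was 49 bp, with medians of 79.5 bp in the set and 77.5 bp outside it. Whether this difference in width bears on the share was not tested. For Hnf4a the listed share differed by 19.2 percentage points, 0 of 10 against 86 of 448. The 10 day 2 peaks allow a share of up to 30%, which includes the day 30 share. The difference between the factors was not tested, since there are no replicates.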

How the results depend on the processing

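Of 120 recomputed values, 77 stayed within the interval of the value reported (for counts, within 1.5 times; for periods, within 2%) and 43 did not. The 77 include the lists with no peak in the set, whose 0 could rise only with the limit at 3500000. The tally is therefore no measure of stability for those lists. All alternatives were planned. With the limit at 3100000, Foxa1 day 30 held 0% of its list in the set, and 0.24% at 3500000. A score above 15.07 (2 times the largest minimum score of any list) left 25 Foxa1 day 2, 660 Foxa1 day 30, 2 Foxa3 day 2 and 1 Hnf4a day 30 peaks. Of these, 0 peaks (0% of each) were in the set, which says little for the last 2 lists, and overlaps could not be computed. In the higher-scoring part of each list (above its median) there were 88 peaks in the set, 93.2% of them on chromosome 9. They made up 46.6% of Foxa3 day 2, 24.7% of Hnf4a day 30 and 0% of both Foxa1 lists. The overlap was then 41.2% of Foxa3 day 2 and 25.9% of Hnf4a day 30 members. In that setting the median step was 711.75 bp for Foxa3 day 2, the periods 136 and 220 bp, the members' median widths 65.5 and 93.5 bp and their median scores 7.70 and 9.20, with 9.41 for the other Hnf4a day 30 peaks. Joining peaks within 500 bp left 61 peaks in the set, 78.7% on chromosome 9, and shares of 39.1% for Foxa3 day 2 and 9.29% for Hnf4a day 30. Without chromosome 9 there were 22, with shares of 14.8% for Foxa3 day 2, 3.31% for Hnf4a day 30 and 0.238% for Foxa1 day 2. Overlaps there were 87.5% of 8 Foxa3 day 2 and 58.3% of 12 Hnf4a day 30 members, median scores 5.40 and 7.51 (7.61 for the other Hnf4a day 30 peaks, so that the order turned, as it did among higher scores), and the Hnf4a day 30 median width 95 bp. Centres within 500 bp gave overlaps of 96% and 93%, equal list lengths 30% for Foxa3 day 2 and 82.9% for Hnf4a day 30, and 50% of the shorter peak 65.1% for Hnf4a day 30. Periods from peak ends were 162 and 156 bp, and over periods of 50 to 600 bp the Hnf4a day 30 period was 511 bp. Beyond the settings' own construction, the cause was not tested. Depth is unknown and limits every count of 0. No paired analysis was possible because each factor and day had 1 ChIP sample.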
